A study of Mus musculus with 64 samples.

Results

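The 119 small nucleolar RNA genes of the count tables were examined across mouse development. They are all rows whose symbol starts with Snora, Snord or Scarna, out of 23338 genes, and comprise 36 Snora, 74 Snord and 9 Scarna rows. The choice used symbols and no measured value. RNA-seq read counts came from 64 C57BL/6 mouse samples. These were 12 single eight-cell embryos collected at 2.5 dpc (6 male, 6 female), 4 lines of embryonic stem (ES) cells, which were made from eight-cell embryos and kept in 2i medium (2 male, 2 female), 24 livers of late-gestation fetuses (12 male, 12 female) and 24 adult livers taken at 15 to 20 weeks of age (12 male, 12 female). The labels list no mutation and no treatment. The ES cells and livers were sequenced with a stranded total RNA kit, whereas the cDNA of each embryo was amplified before library construction, so that stage and protocol cannot be told apart for the embryos.

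Small nucleolar RNAs guide chemical modification of other RNAs in the nucleolus. The C/D box class (Snord) carries a C box near its 5′ end and a D box near its 3′ end and directs methylation of ribose in ribosomal RNA by fibrillarin, and the H/ACA class (Snora) ends in an ACA box and directs the conversion of uridine to pseudouridine by dyskerin. Scarna RNAs carry one or both kinds of box and act on spliceosomal RNAs in Cajal bodies. In mammals most are processed out of introns of host genes after splicing, and many hosts encode ribosomal proteins or translation factors.

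Most of the members lay in introns. Of the 119 members, 118 had a record in RefSeq (GRCm38.p6) and in GENCODE M21 (GRCm38), and 112 lay within a host gene on the same strand. For 102 the RefSeq interval overlapped no exon of the host. For 10 it overlapped one, and reads on both features could not be given to either gene. Ribosomal protein genes hosted 32 members, and the non-coding hosts of the Snhg series and Gas5 held a further 13. The RefSeq intervals had a median length of 82 bases and ranged from 28 (Snord98) to 275 bases (Scarna13). A C box searched as TGATGA within the first 25 bases was present in 46 of 73 Snord sequences (63.0%), and a D box searched as CTGA within the last 25 bases in 72 of 73 (98.6%). An ACA placed 3 bases before the 3′ end was present in 30 of 36 Snora sequences (83.3%). Among all GENCODE transcripts of 50 bases or more, each searched on its own strand, the same letters were found in 0.865%, 11.7% and 2.45%.

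The following C/D box sequences (GENCODE M21, GRCm38) are shown because the stage comparisons turn on them. Snord110, Snord52 and Snord83b were among the members that fell most in adult liver, Snord96a had the highest level per length in embryos, and Snord15a and Snord15b lie in introns of the same host and had stage differences of opposite sign. Capitals mark the searched C box and D box.
Snord110, chr2:130275506-130275573, plus strand: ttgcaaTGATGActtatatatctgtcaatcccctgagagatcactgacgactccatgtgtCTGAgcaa
Snord52, chr17:34950952-34951017, minus strand: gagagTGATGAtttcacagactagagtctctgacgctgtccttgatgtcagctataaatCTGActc
Snord83b, chr15:80078498-80078591, minus strand: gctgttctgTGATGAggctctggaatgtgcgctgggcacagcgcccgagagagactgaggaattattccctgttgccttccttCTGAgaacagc
Snord96a, chr11:48802032-48802112, plus strand: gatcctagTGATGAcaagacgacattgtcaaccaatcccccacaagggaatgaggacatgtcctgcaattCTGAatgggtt
Snord15a, chr7:99482785-99482932, minus strand: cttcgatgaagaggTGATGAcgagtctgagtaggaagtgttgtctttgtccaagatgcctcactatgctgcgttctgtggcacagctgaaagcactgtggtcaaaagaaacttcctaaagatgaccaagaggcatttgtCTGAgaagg
Snord15b, chr7:99479563-99479707, minus strand: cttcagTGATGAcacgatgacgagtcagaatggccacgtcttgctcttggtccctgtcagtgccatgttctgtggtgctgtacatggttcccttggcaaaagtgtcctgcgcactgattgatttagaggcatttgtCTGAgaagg

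The next sequences (GENCODE M21, GRCm38) are of 2 of the 3 H/ACA members that were called higher in female than in male liver at both ages. Capitals mark the ACA box.
Snora23, chr7:110046364-110046547, plus strand: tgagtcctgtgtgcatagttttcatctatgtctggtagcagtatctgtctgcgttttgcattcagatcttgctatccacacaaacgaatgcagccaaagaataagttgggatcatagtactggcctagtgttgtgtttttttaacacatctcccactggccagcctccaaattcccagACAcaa
Snora78, chr17:24719676-24719803, minus strand: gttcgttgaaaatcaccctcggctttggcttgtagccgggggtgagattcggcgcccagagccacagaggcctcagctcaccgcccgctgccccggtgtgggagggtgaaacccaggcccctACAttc

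Reads on genes ranged from 9857929 to 10386931 in ES cells, from 5145371 to 8499603 in fetal liver, from 4659656 to 7725432 in embryos and from 1567583 to 4757610 in adult liver. The level that 3 reads can show, in CPM (reads on a gene scaled to a common library size) before TMM scaling, was 0.289 to 0.304 in ES cells, 0.353 to 0.583 in fetal liver, 0.388 to 0.644 in embryos and 0.631 to 1.91 in adult liver. All levels given are CPM scaled with TMM factors over the 64 libraries. Alb, a plasma protein of hepatocytes, had 13794 CPM or more in every liver, and Nanog, a pluripotency factor, had 367 to 422 CPM in ES cells. Not all markers followed the labels. Of those listed for eight-cell embryos, Gdf9 and Obox6 were highest there, whereas Zscan4c had a median of 0 in embryos. Cdx2 was highest in a fetal liver, at 24.8 CPM before TMM scaling against at most 8.16 in embryos. The share of reads outside genes, among reads that fell on a gene, outside genes or on more than 1 gene, was 39.9% to 49.0% for fetal livers of males and 34.1% to 38.1% for those of females. These ranges did not overlap. In adult liver it was under 30% in 6 males and in the 6 females numbered 13 to 18, and at least 30% in the other 6 of each sex.

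By detection in every library, small nucleolar RNAs were found most widely in ES cells. At least 3 reads in every library of the stage were found for 92 of 119 members in ES cells, 58 in fetal liver, 15 in adult liver and 6 in embryos. These are 77.3%, 48.7%, 12.6% and 5.04% of members, against 56.9%, 56.2%, 44.1% and 29.03% of all genes. The rule asks for 4 ES libraries and for 24 of each liver, and with 1 read in any library ES cells and fetal liver both had 105 members. In no library of the stage were 3 reads reached for 18 members in ES cells, 21 in fetal liver, 55 in adult liver and 49 in embryos. The adult libraries were the shallowest. In fetal liver 27 of 36 Snora rows (75.0%), 6 of 9 Scarna rows (66.7%) and 25 of 74 Snord rows (33.8%) had at least 3 reads in every library, whereas in adult liver 4 Scarna rows (44.4%), 7 Snora rows (19.4%) and 4 Snord rows (5.41%) did. Of the 92 members detected in all ES lines, 28 (30.4%) reached 3 reads in no embryo, against 1587 of the 13270 genes detected in this way in ES cells. All 7 Scarna rows of that set were among the 28. In fetal liver each of the 92 reached 3 reads in at least 1 library.

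A set of 12 members had no read in any of the 64 libraries. It included Snord14c and Snord14d, copies of U14 in introns of Hspa8, and the imprinted rows Snord116, Snord116l1 and Snord116l2. Reads that align to several places are left out of these counts, and near-identical copies cannot be read as absent RNAs. Snord14a, the other U14 row with reads, had 0.144 to 0.291 CPM in the ES lines and at most 2 reads in a fetal liver. Snord118 (U8), which takes part in the processing of ribosomal RNA precursors, had no read in ES cells or livers. Its reads were found in embryos 9 and 11, both female, at 3.19 and 0.621 CPM, and in no other embryo.

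The summed level of the members was highest in ES cells. Male ES lines 1 and 2 had 637 and 708 CPM, and female lines 3 and 4 had 620 and 628 CPM. Fetal livers had 297, 364 and 396 CPM (lowest, median and highest) in males and 389, 477 and 547 CPM in females. Every fetal liver lay below every ES line, and the sexes overlapped only between 389 and 396 CPM. Adult livers had 260, 360 and 419 CPM in males and 245, 393 and 546 CPM in females. In embryos the sum was 46.4, 54.5 and 85.4 CPM in males and 46.9, 68.5 and 105 CPM in females. The adult livers overlapped the fetal livers, and each embryo stood below each liver. The overlap of the livers depended on the scaling in males. Before TMM scaling adult males had 226 to 326 CPM and fetal males 336 to 452 CPM. Adult females (209 to 445 CPM) and fetal females (429 to 594.5 CPM) still overlapped. Sums over members were not tested. In bulk samples fewer cells of a type and less RNA per cell cannot be told apart.

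**Figure D1:**
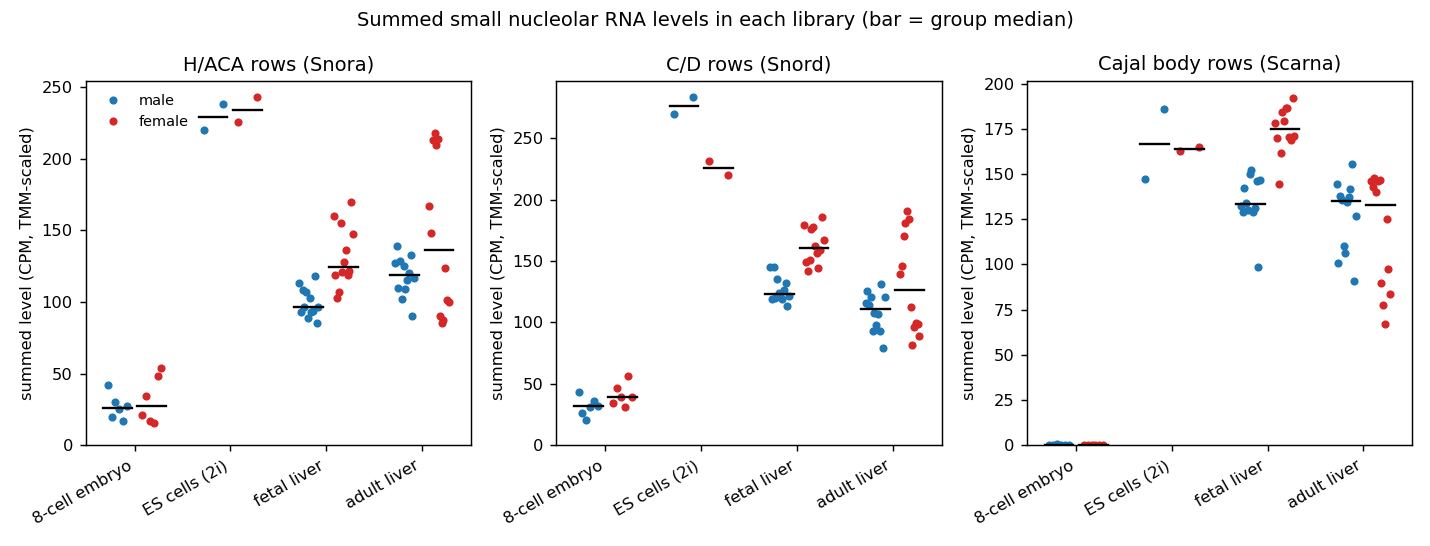
Each point is one library and shows the summed level (CPM, TMM-scaled, linear axis from 0) of the Snora, Snord or Scarna rows, with males in blue, females in red and a bar at the group median. ES cells stand highest for Snora (220 to 243 CPM) and Snord (220 to 283 CPM), embryos have at most 0.397 CPM of Scarna, and adult female livers range from 85.6 to 218 CPM for Snora.

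A few rows held much of the signal in liver. Snord17, Scarna6 and Snora74a took 42.9% of all member reads in adult liver, and Scarna10, Snord17 and Scarna13 took 36.8% in fetal liver and 20.9% in ES cells. In embryos the leading rows were Snord96a, Snora33 and Snora65, with 20.3%. The leading rows of the total RNA libraries were thus not those of the amplified embryo libraries.

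Levels of different members were compared only per kilobase of annotated length. By RefSeq length Scarna10, a guide for spliceosomal RNA, led in fetal liver with 964 CPM per kb ± 188 (SD, n = 24) and in ES cells with 711 CPM per kb ± 119 (SD, n = 4). Scarna2 led in adult liver with 397 CPM per kb ± 99.3 (SD, n = 24), within 1 SD of Scarna10 at 361 CPM per kb ± 140. The RefSeq interval of Scarna10 is 71 bases and its GENCODE interval 325 bases, so that this order depends on the annotation. By GENCODE length Snord17 led in both livers, with 220 CPM per kb ± 57.6 in fetal liver (SD, n = 24) and 292 CPM per kb ± 95.6 in adult liver (SD, n = 24). In ES cells Snord96a then led with 261 CPM per kb ± 65.7 (SD, n = 4), which overlapped Snord17 at 192 CPM per kb ± 6.83. Snord96a also led in embryos by either length, with 75.9 CPM per kb ± 36.4 by RefSeq length, followed by Snord52 at 61.4 CPM per kb ± 34.2 (SD, n = 12). The spread between embryos was larger than the step between these rows.

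The Scarna rows contrasted most between the protocols. Scarna10 had 44.6 and 62.8 CPM in the male and 49.2 and 45.4 CPM in the female ES lines, 38.5, 68.6 and 94.7 CPM in fetal liver and 9.06, 25.9 and 46.6 CPM in adult liver (lowest, median and highest). No read of it was counted in any of the 12 embryos. Scarna2, Scarna6 and Scarna17 also had no embryo read, and Scarna9, Scarna13, Scarna8 and Scarna3b had at most 2 reads in an embryo. Scarna3a was at or near 0 throughout, with at most 2 reads in any library. Since the embryos differ from the other libraries in stage and in protocol at once, no test was made between them.

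Embryo values were also the most variable. Snord96a had 2.38, 6.26 and 11.2 CPM in male and 2.66, 5.23 and 8.46 CPM in female embryos (lowest, median and highest). Snord52, hosted by a non-coding gene, had 0.993, 2.20 and 6.04 CPM in males and 2.83, 4.09 and 8.12 CPM in females. Both ranges overlapped widely between the sexes. Of 12 members that passed edgeR's expression filter in embryos none was called by sex (background 0.264% of 9087 genes), none had an unadjusted p under 0.05 in edgeR's quasi-likelihood test (background 3.88%), and DESeq2 called 0 as well. The median biological coefficient of variation of the members was 1.05, against 0.525 for all genes tested in embryos. The corresponding medians were 0.179 and 0.131 in ES cells, 0.154 and 0.101 in fetal liver and 0.237 and 0.120 in adult liver. Members thus varied more between libraries than the typical gene at each stage. The genes were not matched for level, and many members have few reads, so the part of low counts was not tested.

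The comparison of ES cells with fetal liver used libraries of the same kit. A stage difference was called at a Benjamini-Hochberg adjusted p under 0.05 with an absolute log2 fold change above 1. Of 73 members tested, 48 were higher in ES cells and 0 were lower (background 56.4% of 14900 genes called, 23.5% higher and 32.9% lower). The median log2 over the 73 members was 1.33, against -0.08 over all genes. By class, 30 of 37 Snord and 18 of 30 Snora rows were higher, and none of the 6 Scarna rows was called. The filter was passed by 34 of these 73 members in the ES and liver libraries together and not in the 48 livers alone. Of the 73, 24 passed it in neither fetal nor adult liver alone. Those 24 had to be high in ES cells, and their direction carries no support. Among the 14 members that passed the filter in adult liver alone, 3 were called higher in ES cells, with a median of 0.51.

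Snora69, an H/ACA RNA in an intron of the X-linked ribosomal protein gene Rpl39, had the largest fitted difference. It is one of the members that passed the filter only through the ES libraries, so its direction was fixed by the filter and is given as a description. It had 4.19 and 7.42 CPM in the male and 6.23 and 5.66 CPM in the female ES lines, against 0.373, 0.763 and 1.19 CPM in fetal liver (lowest, median and highest). The groups did not overlap, and the fitted log2 fold change was 2.99 ± 0.22 (SE). Snord64, from the imprinted region of chromosome 7, had 1.88 and 2.62 CPM in male and 2.38 and 1.73 CPM in female ES lines. Fetal livers had 0, 0.298 and 0.743 CPM, with no read in 4 of 24, and the fitted log2 fold change of Snord64 was 2.83 ± 0.34 (SE). It too was higher in each ES line than in each fetal liver and entered only through the ES libraries, as did Snord99 (2.34 ± 0.22) and Snord110 (2.30 ± 0.30). Snord52 and Snord49a also passed the filter among fetal livers alone, and were higher in ES cells by a log2 of 2.46 ± 0.21 (SE, adjusted p = 2.6e-16) and 2.26 ± 0.22 (SE, adjusted p = 2.9e-14).

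The proteins of small nucleolar ribonucleoproteins were also higher in ES cells. Of 22 genes of the core, assembly and Cajal body lists, 18 were higher in ES cells and 0 were lower (23.5% of all genes were higher). All 4 C/D core proteins were among them, such as the methyltransferase Fbl (132 CPM ± 9.88, SD, n = 4, in ES cells, 53.0 CPM ± 6.48, SD, n = 24, in fetal liver and log2 1.39). The pseudouridine synthase Dkc1 had 371 CPM ± 71.1 in ES cells (SD, n = 4) and 96.4 CPM ± 8.54 in fetal liver (SD, n = 24), with a log2 of 2.00. Coil, the scaffold of Cajal bodies, and Wrap53, which takes RNAs to them, were higher as well (log2 of 2.34 and 1.21), whereas no Scarna row was called. Nop10, Gar1, Pih1d1 and Tgs1 did not pass, with log2 of 0.61, 0.71, 0.44 and 0.30.

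In adult liver most of the tested members were lower than in fetal liver. Of the 73 members, 41 were lower and 2 higher (background 44.4% of 14900 genes called, 26.7% lower and 17.8% higher), with a median log2 of -1.31 against -0.17 over all genes. Of the Snord rows 29 of 37 fell, of the Snora rows 10 of 30, and of the Scarna rows 2 of 6. The count depends on which members are tested. In a fit of the 48 livers alone 39 members passed the filter, of which 15 were lower and 2 higher (background 43.4%), and the median log2 was -0.36. The 60 other short non-coding rows tested (such as microRNA precursors, small nuclear and Y RNAs) included 36 that were lower and 5 that were higher, with a median of -1.67. Of the 14 members that passed the filter in adult liver alone, 1 fell (Scarna10) and 2 rose, with a median of 0.48, where the choice favours members high in adult liver. Of the 35 that passed in fetal but not in adult liver alone 22 fell, which their choice favours in turn. Fetal and adult liver also differ in cell makeup. Alas2, which encodes the first enzyme of heme synthesis in erythroid cells, had 877 to 1262 CPM for fetal males, 945 to 1436 CPM for fetal females, 184 to 242 CPM for adult males and 13.3 to 50.6 CPM for adult females, and the globin rows Hbb-b1 and Hba-a1 were at or near 0 throughout. The part of these cells in the result was not tested.

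The members that fell most were short C/D RNAs at low counts, and of those named next Snord83b alone passed the filter in the livers without the ES libraries. Snord83b, in an intron of Rpl3, had 1.25, 2.72 and 4.96 CPM in fetal liver and 0, 0 and 1.08 CPM in adult liver (lowest, median and highest), with no read in 14 of 24 adult livers. The groups did not overlap, and the fitted log2 fold change was -3.28 ± 0.26 (SE). Snord12, from the non-coding host 1500012F01Rik (Zfas1), had 0.757, 1.65 and 2.96 CPM in fetal and 0, 0 and 0.758 CPM in adult liver. Its fitted log2 fold change was -3.21 ± 0.30 (SE), and the ranges just met. Snord52 had 0.590, 1.72 and 3.05 CPM in fetal and 0, 0 and 2.08 CPM in adult liver, which overlapped, with a log2 of -3.10 ± 0.33. Snord49b and Snord65, from the host 2410006H16Rik, had log2 of -3.19 ± 0.49 and -3.29 ± 0.52 but no read in 20 and 22 of 24 adult livers. Snord110, in an intron of Nop56, had no adult read at all. Against 3 reads over the 24 adult livers (0.0562 CPM), its fetal level of 0.305 CPM (55 reads over 24 livers) was at least 5.43-fold higher.

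Scarna6 and Snora23 were the members called higher in adult liver. Scarna6, in an intron of the autophagy gene Atg16l1, had 14.7, 22.9 and 37.3 CPM in fetal and 23.7, 51.2 and 70.8 CPM in adult liver (lowest, median and highest). The ranges overlapped, and the log2 fold change was 1.02 ± 0.08 (SE, adjusted p = 5.9e-17). Snora23, in an intron of the importin gene Ipo7, had 3.44, 5.92 and 14.5 CPM in fetal and 8.01, 15.3 and 30.4 CPM in adult liver, with a log2 of 1.32 ± 0.12 (SE, adjusted p = 5.8e-16). Its ranges overlapped as well. The RNA 1600010M07Rik lies antisense to Snora23, and since no source gives the strand setting of the counting, reads of the pair may not be separated. Snora74a (log2 0.89 ± 0.06), Snord17 (0.50 ± 0.09) and Snord15b (0.46 ± 0.11) passed the adjusted p but not the fold threshold. Scarna10, the leading row per RefSeq length in fetal liver, had a log2 of -1.31 ± 0.10 (SE, adjusted p = 4.2e-17). Its interval overlaps an exon of Ncapd2, a condensin subunit, whose own log2 was -5.37 ± 0.08.

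The size of the difference varied with the annotated length. Of 29 tested members of 70 bases or fewer, 25 were lower in adult liver and 0 higher, with a median log2 of -2.004. Among these 29, Scarna2 (61 bases, log2 0.22, not called) alone passed the filter in adult liver alone. The other short members entered through fetal liver or ES libraries, which favours a fall, so the filter and length cannot be told apart here. Of 14 members of 71 to 110 bases 8 were lower (median -1.46), and of 30 longer members 8 were lower and 2 higher (median -0.29). Over 73 members Spearman's rho between RefSeq length and log2 was 0.56, given as a description, since the members share libraries and longer rows have more reads. Class and length go together, but 4 Snord rows longer than 110 bases (Snord15a, Snord15b, Snord17 and Snord22) had a median of 0.17 and none was called among those tested. For ES cells against fetal liver rho was -0.29.

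**Figure D2:**
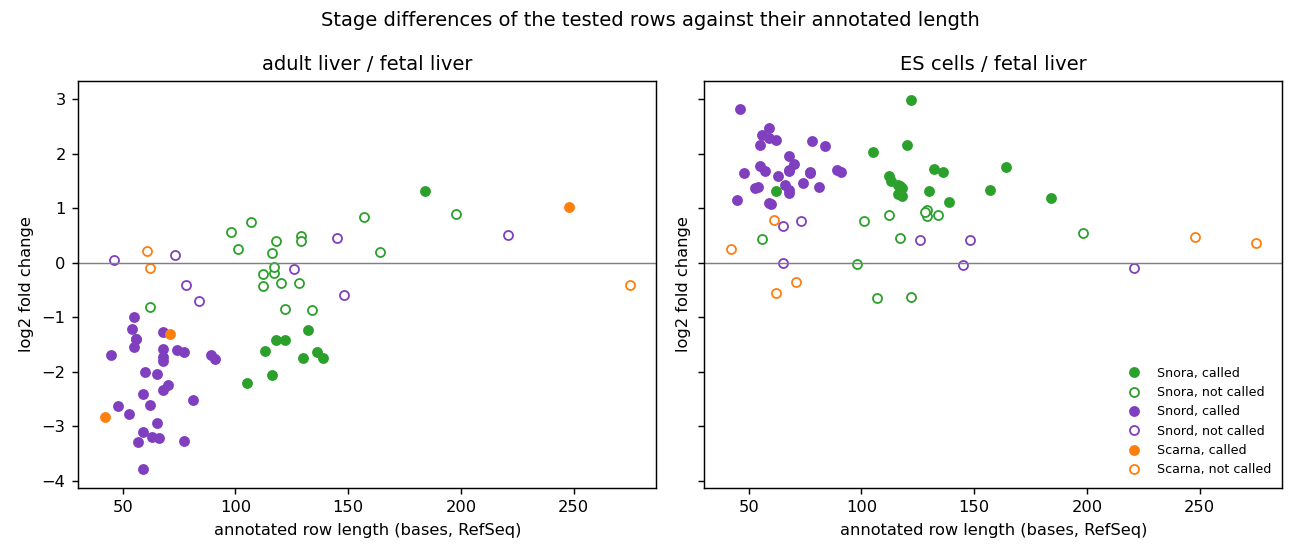
Each point is a tested member, with its RefSeq length in bases on the x axis and its log2 fold change on the y axis (left adult liver over fetal liver, right ES cells over fetal liver, which share the fetal libraries). Filled points were called, and colours give the class. In the left panel 25 of 29 members of 70 bases or fewer were called lower, and the called higher points are Snora23 (184 bases) and Scarna6 (248 bases). Of these short members only Scarna2 passed the filter in adult liver alone, so their fall was favoured by the filter.

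Host genes had a smaller median difference than the tested RNAs in their introns. Most of these RNAs did not pass the filter in adult liver alone, which favours larger falls, so the sizes are given as a description. Between adult and fetal liver 64 members had a tested host, 50 distinct hosts in all. Of these hosts 15 were lower and 0 higher (median log2 -0.71), against 26.7% lower and 17.8% higher of all genes. The share that was lower was thus near that of all genes. Of 39 members with a host that fell, the host was called lower for 13. In 53 of the 64 pairs member and host had the same sign, and Spearman's rho over the pairs was 0.48 as a description. Rpl3, the host of Snord83b and Snord43, had a log2 of -0.93 ± 0.04 (SE), against -3.28 and -2.63 for these members. Nop56, itself a C/D core protein and the host of Snord110, was lower by -2.12 ± 0.06 on the log2 scale. Snhg1, the host of Snord22, was lower by more than its RNA, with a log2 of -2.47 ± 0.07 against -0.11 ± 0.10 (adjusted p = 0.28) for Snord22, whose interval overlaps a host exon. Ipo7 had a log2 of -0.23 ± 0.03 while Snora23 rose.

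Members of the same host did not always move together. Snord15a and Snord15b, both in introns of Rps3 (log2 -0.67 ± 0.04), had log2 of -0.60 ± 0.17 and 0.46 ± 0.11, respectively. Snord15a had 3.21, 4.74 and 8.88 CPM in fetal and 0.339, 2.83 and 7.82 CPM in adult liver (lowest, median and highest). For Snord15b the values were 7.40, 11.3 and 17.3 CPM and 5.33, 15.9 and 30.4 CPM. The ranges of both overlapped between the ages, and the difference between the members was not tested. In Eif4a2 (log2 0.63 ± 0.04), a translation factor, Snord2 had -1.27 ± 0.14 and Snora81 0.20 ± 0.08. By contrast Snord49a, Snord49b and Snord65, of 1 host, were all lower, by log2 of -2.61, -3.19 and -3.29, against -0.84 for the host.

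**Figure D3:**
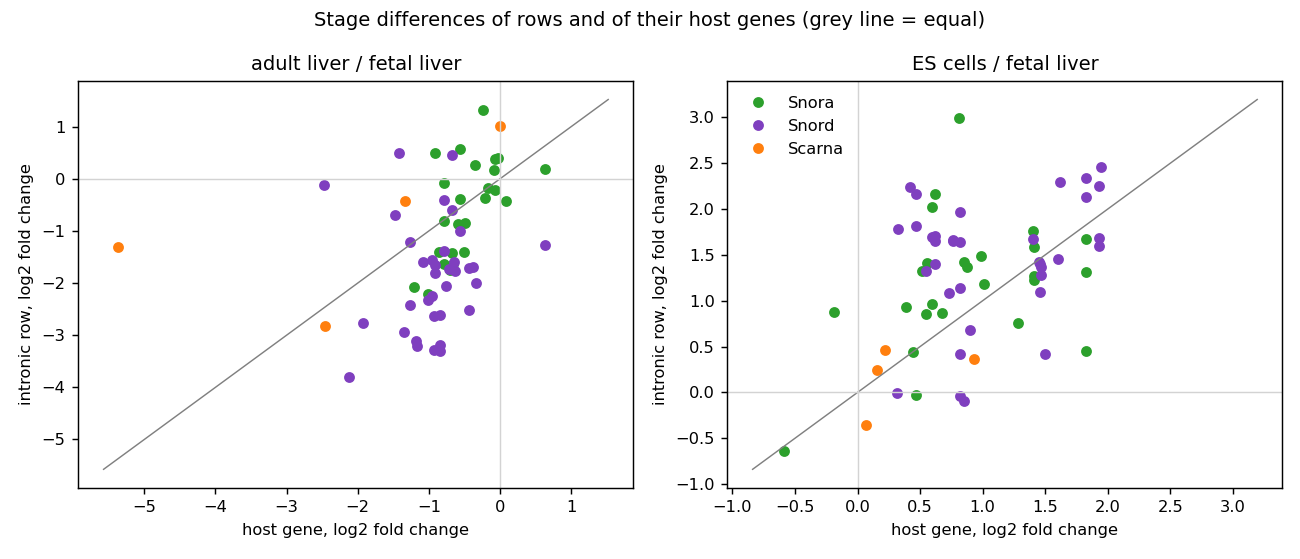
Each point pairs a member (y axis, log2 fold change) with its host gene (x axis, log2 fold change) for adult over fetal liver (left, 64 pairs) and ES cells over fetal liver (right, 64 pairs), coloured by class, and the grey line marks equal change. On the left most points lie below the line, and 53 of 64 pairs share their sign. Most of the members shown did not pass the filter in adult liver alone, which favours a fall on the left.

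A smaller share of the proteins than of the 73 tested members differed between the livers, but the member share depends on the filter. Among the 14 members that passed it in adult liver alone, 1 was lower and 2 were higher, with a median log2 of 0.48. Of the 22 genes 6 were lower in adult liver and 0 higher, with a median log2 of -0.64, a share near the 26.7% of all genes that were lower. These were the C/D core proteins Nop56 and Nop58 (-2.12 and -1.93), the H/ACA proteins Dkc1 and Gar1 (-1.58 and -1.72), the assembly helicase Ruvbl2 (-1.51) and the nucleolar phosphoprotein Nolc1 (-1.19). Fbl fell short of the fold threshold (-0.87, from 53.0 CPM ± 6.48 to 27.8 CPM ± 3.90, SD, n = 24 each).

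Sex differences were compared within each stage, and were called sex dimorphic at an adjusted p under 0.1 with an absolute log2 (male/female) above 0.5. In fetal liver 10 of 49 members were called and all 10 were higher in females (background 4.64% of 12930 genes in either direction, 0.828% higher in females and 3.81% higher in males). They comprised 8 of 23 Snora rows, Snord17 and Scarna2. The median log2 over the 49 members was -0.26, against -0.03 over all genes, and 43 of 49 lay below 0. Of the 49, 22 did not pass the filter in males alone and 16 did not in females alone. Members that entered through a given sex were favoured to be higher in it, so these counts partly reflect the choice of members. At an unadjusted p under 0.05 were 24 of the 49 members, against 40.5% of all genes. The share of reads outside genes separates male from female fetal livers, so sex and this share cannot be told apart. With the share as a covariate edgeR called no member and 9 genes in all, 1 of the 49 members had an unadjusted p under 0.05, and the median over members was -0.01. The erythroid marker Alas2 had a median of 1060 CPM in males and 1227 CPM in females, with overlapping ranges, and its part was not tested.

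Snord17, a long C/D RNA in an intron of the sorting nexin gene Snx5, had 33.0, 39.5 and 55.2 CPM in male and 47.7, 63.8 and 74.5 CPM in female fetal livers (lowest, median and highest). It was above every male in 10 of 12 females, and the log2 was -0.61 ± 0.08 (SE, adjusted p = 3.3e-06). Snora23 had 3.44, 4.75 and 7.17 CPM in males and 5.73, 8.02 and 14.5 CPM in females, and 7 females lay above every male (log2 -0.84 ± 0.15, adjusted p = 0.00017). Snora44, in Snhg12, had 1.31, 1.90 and 3.60 CPM in males and 2.94, 3.54 and 5.55 CPM in females, with a log2 of -0.80 ± 0.16 (SE, adjusted p = 0.00044). All 12 females lay above the male median for each of these 3 members, and the ranges overlapped. Their hosts Snx5 and Ipo7 had log2 of -0.09 ± 0.03 and -0.03 ± 0.04.

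Snora64, in an intron of Rps2, showed the largest fold. It had 0.357, 1.47 and 1.88 CPM in males and 1.31, 2.37 and 5.39 CPM in females, with a log2 of -1.03 ± 0.27 (SE, adjusted p = 0.0048) and 9 of 12 females above the male median. Snora78, in Snhg9 and antisense to Rps2, had 3.54, 6.07 and 8.52 CPM in males and 5.02, 9.32 and 15.03 CPM in females (log2 -0.70 ± 0.15, adjusted p = 0.0011). Both ranges overlapped. The other called rows were Snora52 (-0.59 ± 0.17), Snora21 (-0.58 ± 0.17), Snora5c (-0.58 ± 0.18), Snora68 (-0.53 ± 0.17) and Scarna2 (-0.52 ± 0.18). Just under the fold threshold were Scarna6 (-0.46 ± 0.09, adjusted p = 0.00026), Snord15a (-0.45 ± 0.15) and Snora65 (-0.44 ± 0.13). No member separated the sexes completely, as did 0.565% of genes higher in females and 1.27% higher in males. Without the 4 females with the highest Snora sums (numbers 13, 17, 23 and 24, 148 to 170 CPM against 103 to 136 CPM in the other 8), 4 of 51 members were called, namely Snord17, Snora23, Snora44 and Scarna2.

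**Figure D4:**
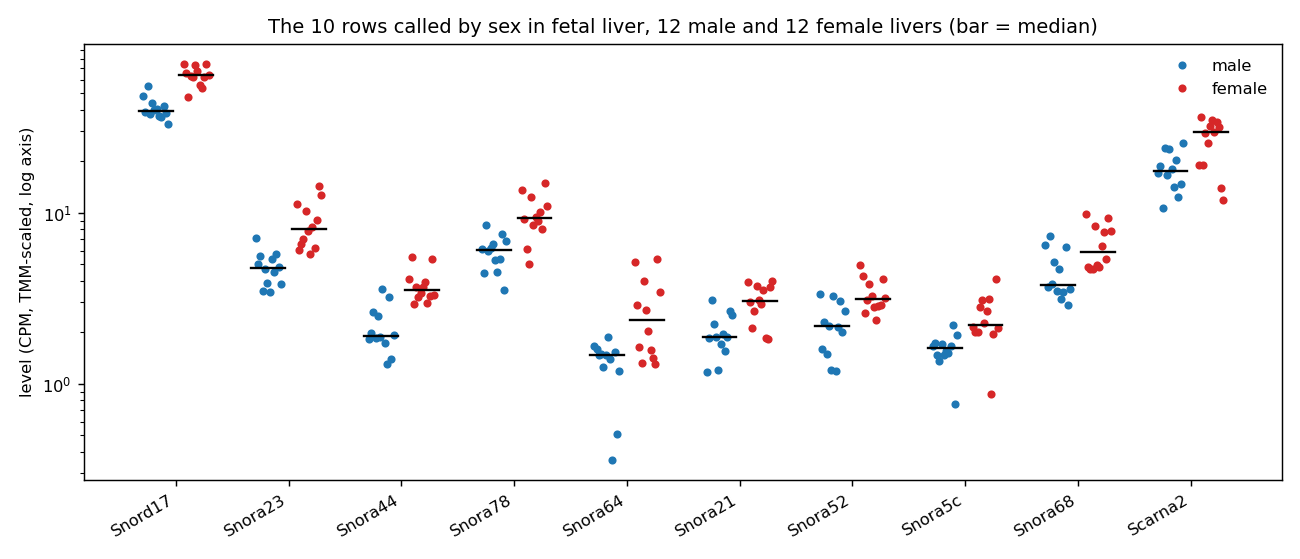
Levels (CPM, log axis) of the 10 members called by sex in fetal liver, with 12 males in blue, 12 females in red and a bar at each median, ordered by p from left to right. The female median lies above the male median for each member, as for Snord17 (63.8 against 39.5 CPM), and the sexes overlap for all 10.

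None of the tested hosts of members was called by sex in fetal liver, where 4.64% of all genes were. Of 42 members with a tested host 8 were called, and of the 35 distinct hosts 0 were, with a median host log2 of -0.10. Some hosts passed the adjusted p of edgeR's test but not the fold threshold, in either direction. Examples are Gnb2l1 (-0.20, adjusted p = 0.00051) and 5830418K08Rik (0.22, adjusted p = 0.0049). In 33 of the 42 pairs member and host had the same sign, and Spearman's rho over the pairs was -0.01. Longer members had lower values of log2 (male/female), with a rho of -0.52 over 49 members, given as a description. Of the 25 tested members over 110 bases 7 were called, against 1 of 17 with 70 bases or fewer. Longer rows have more reads, and sex cannot be told apart from the share of reads outside genes here, so the part of length was not tested. Of the 22 proteins 1 was called, a share near that of all genes. It was Naf1, an assembly factor of H/ACA particles, which was higher in males by a log2 of 0.66.

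In adult liver 5 of 14 tested members were called, and all 5 were higher in females (background 9.49% of 10372 genes in either direction, 6.48% higher in females and 3.01% higher in males). Of the 14, 4 did not pass the filter in males alone and 4 did not in females alone. Snora78 had 2.87, 8.71 and 15.2 CPM in males and 3.68, 17.8 and 34.0 CPM in females (lowest, median and highest), with a log2 of -1.08 ± 0.30 (SE, adjusted p = 0.0095). Snora68 had 1.61, 4.21 and 7.91 CPM in males and 2.21, 9.29 and 26.7 CPM in females, with a log2 of -1.37 ± 0.38 (SE, adjusted p = 0.0098). The sexes overlapped for both, with 7 (Snora78) and 6 (Snora68) of 12 females above every male. Snord15b had 5.33, 8.75 and 24.2 CPM in males and 12.3, 19.8 and 30.4 CPM in females, and all 12 females exceeded the male median (log2 -0.86 ± 0.21, adjusted p = 0.0028). Snord22, from Snhg1, and Snora23 had log2 of -0.57 ± 0.18 and -0.52 ± 0.16. Snora23, Snora68 and Snora78 were called at both ages, of 5 fetal calls that were tested in adult liver. With DESeq2, the paper found most genes dimorphic in fetal liver again in adult liver, whatever their direction. Such overlap is therefore not particular to the members. No member separated the sexes completely (background 1.26% higher and 1.2% lower in females). In the other direction Scarna13, from Snhg10, had 16.8, 28.7 and 35.8 CPM in males and 10.5, 20.1 and 25.7 CPM in females, and a log2 of 0.43 ± 0.12 (SE, adjusted p = 0.0096), below the fold threshold.

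The adult calls were made in libraries with few reads outside genes and not in the others, a difference that was not itself tested. The 2 subsets also differed in depth. Median reads on genes were 3600100 in males and 2776900 in females under 30%, against 2019500 and 1814400 at 30% or more. The part of depth in these calls and in the slopes below was not tested. Among the 6 males and 6 females under 30%, 8 of 17 members were called, all higher in females (background 11.7%), and the summed level was 355 to 419 CPM in males and 438 to 546 CPM in females. Among the 6 males and 6 females at 30% or more, 0 of 11 were called by edgeR (background 7.29%) and 2 had an unadjusted p under 0.05, with a median log2 of 0.08 and summed levels of 260 to 366 CPM and 245 to 348 CPM. With the share as a covariate in all 24 livers 4 members were called (Snora68, Snora78, Snord15b and Snord22). Within the sexes of adult liver 7 members were lower where the share was higher. Per 10 percentage points of reads outside genes, 7 of 14 members had a slope below 0 at an adjusted p under 0.05 and 0 above (background 14% of genes in either direction, 8.02% above and 5.94% below 0), with a median log2 slope of -0.75. The steepest was Snora68 (-2.50 ± 0.43, SE, adjusted p = 0.00024), followed by Snora78 (-1.89 ± 0.34) and Scarna10 (-1.32 ± 0.20). In fetal liver 2 of 49 members had such a slope (background 7.61% in either direction, 5.2% above and 2.41% below 0), Scarna10 (-0.79 ± 0.17) and Snora44 (-1.42 ± 0.38).

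**Figure D5:**
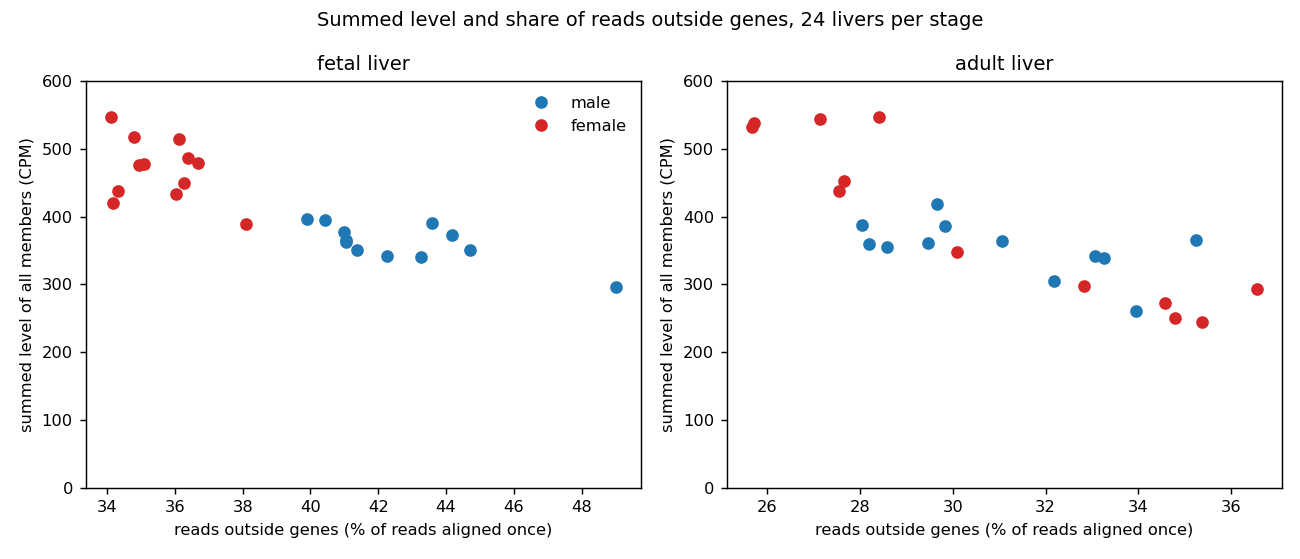
Each point is a liver library, with the share of reads outside genes (percent) on the x axis and the summed level of all members (CPM, axis from 0) on the y axis, males in blue and females in red. In fetal liver (left) the sexes do not overlap on the x axis, and in adult liver (right) the 6 females under 30% have 438 to 546 CPM and the other 6 have 245 to 348 CPM.

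In ES cells 3 of 83 members were called, and all were higher in male lines (background 9.50% of 12678 genes in either direction, 3.42% higher in males and 6.08% higher in females). Snord104 had 11.9 and 11.4 CPM in the male and 5.69 and 5.42 CPM in the female lines, with a log2 of 1.08 ± 0.18 (SE, adjusted p = 0.035). Snord96a had 28.0 and 22.8 CPM in the male and 16.8 and 17.05 CPM in the female lines (log2 0.59 ± 0.15, adjusted p = 0.090). Snord4a, antisense to Tlcd1, had 5.85 and 4.80 CPM against 2.77 and 2.20 CPM (log2 1.10 ± 0.28, adjusted p = 0.086). The lines of each sex did not overlap for these members. With 2 lines per sex the calls rest on few samples, and leaving out either female line left none, nor any other gene, with 2 members at an unadjusted p under 0.05 in each case. Leaving out male line 1 gave 9 calls, all higher in males, and leaving out male line 2 gave 8, of which 7 were higher in males. With 1 line left in a sex, the spread comes from the other sex alone and the lone line is assumed to vary likewise, so that these counts say little of stability. The called fetal members Snord17, Snora23 and Scarna2 had log2 of 0.07 ± 0.10, -0.09 ± 0.15 and 0.16 ± 0.14 in ES cells.

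Whether the sex difference itself changed between fetal and adult liver was tested as an interaction. The share of reads outside genes separates the sexes in fetal liver and was not in this model. A change of the sex difference with age and an effect of this share therefore cannot be told apart. Of 73 members 7 differed at an adjusted p under 0.1 (background 28.4% of 14900 genes). Scarna6 had a log2 (male/female) of -0.46 ± 0.09 in fetal and 0.24 ± 0.12 in adult liver, an interaction of 0.72 ± 0.16 (SE, adjusted p = 0.00082). Its levels were 14.7, 19.8 and 25.7 CPM in fetal males, 22.6, 28.0 and 37.3 CPM in fetal females, 35.8, 53.0 and 70.8 CPM in adult males and 23.7, 47.3 and 54.3 CPM in adult females. The sexes overlapped at both ages, and neither sex difference was called on its own (adult adjusted p = 0.16). Scarna13 had -0.10 ± 0.06 and 0.43 ± 0.12, and Snora74a -0.37 ± 0.08 and 0.02 ± 0.09. For Snord17 the interaction was 0.43 ± 0.19 (adjusted p = 0.10), and for Snora78 -0.36 ± 0.34.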

How the data were processed

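RNA was sequenced from 12 single eight-cell embryos, 4 ES cell lines, 24 fetal livers and 24 adult livers of C57BL/6 mice. For ES cells and livers the authors used a stranded total RNA kit, and for embryos a single-cell amplification protocol. Per the submitters' notes and methods, reads were aligned to mm10 with TopHat 2.0.4 and Bowtie2 2.1.0, handled with SAMtools 0.1.18, cleared of duplicates with Picard and counted with HTSeq. The strand setting is not given in the sources used here. The deposited values are raw read counts per gene, and 5 rows that name no gene were left out. They took 10.8% to 49.6% of the reads counted as outside genes, ambiguous or on a gene. Removal of duplicates limits the number of distinct reads on very short genes, and reads aligning to several places were not counted.

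Groups came from the stage and gender labels. Sexes were compared within each stage, and fetal liver with adult liver and ES cells over the 52 libraries of the total RNA kit, with edgeR 4.0.16 (filterByExpr, TMM factors, robust quasi-likelihood test, R 4.3.3) and Benjamini-Hochberg adjustment over all genes tested. Signed sex differences are log2 (male/female). DESeq2 1.42.0, RLE factors, no filter, no fold threshold, a covariate and left-out libraries were alternatives. The fits were tested on simulated data. Some genes are not reported here. Named members were the leading calls of each comparison by p or fold change, the highest per kilobase, those with textbook roles, the smallest interaction p and their hosts, and a few others were chosen after their values were seen. The members and lists were chosen with earlier results of these data known. The samples are separate animals, embryos or lines as labelled. Same-numbered fetal and adult livers are different animals, and their deviations did not go together. Reads on genes per library were 1567583 to 10386931.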

Additional observations from a re-analysis of the deposited data

Results flagged for a closer look

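Among 16 groups examined for a sample far from the others, of which chance flags about 1 in 20, male embryo 1 stood apart in its summed level of all members (85.4 CPM against a group median of 54.5 CPM) and in Snora65 (8.76 against 2.11 CPM).

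For 7 members the sex difference itself differed between fetal and adult liver by the interaction term in edgeR (adult minus fetal log2 of male over female, against 28.4% of all genes). It was 0.72 for Scarna6 (adjusted p = 0.00082), 0.56 for Scarna13 (adjusted p = 0.0012) and 0.41 for Snora74a (adjusted p = 0.010). Further values were -0.91 for Snora34 (adjusted p = 0.045), 0.42 for Snora81 (adjusted p = 0.068) and 1.05 for Snora16a (adjusted p = 0.097). Snord49b, at -3.29 (adjusted p = 0.033), rests on 5 adult reads. The model held no term for the share of reads outside genes, which separates the sexes in fetal liver, so its part cannot be told apart.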

How the results depend on the processing

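In fetal liver the count of members called by sex went from 10 to 23 without the fold threshold, to 0 with the share of reads outside genes as a covariate and to 4 without females 13, 17, 23 and 24, a set chosen after seeing the data. With the covariate Snora44 (0.19), Snora5c (0.17), Snora64 (0.48), Snora68 (0.029) and Snora78 (0.067) changed sign. In adult liver 5 calls became 11 without the expression filter, and, in subsets also chosen after seeing the data, 8 under 30% and 0 at 30% or more of reads outside genes. In ES cells 3 calls became 1 with DESeq2 and 0 to 9 with 1 line left out. Between adult and fetal liver 43 calls became 17 in the livers alone, where 39 members were tested. Fetal slopes went from 2 to 23 without the gender term.

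With the replicate number as a block, again in the livers alone, the adult and fetal comparison also gave 17 calls. The deviations of 24 same-numbered pairs correlated at -0.066 to 0.050, so that the numbers pair nothing. Detection in every library fell or rose to 13 (1 read) and 1 (10 reads) members in embryos, 27 (10 reads) in fetal liver and 7 (10 reads) in adult liver. Median sums in plain CPM were 897 in male and 808 in female ES lines. In the livers they were 413 in fetal males, 516 in fetal females, 288 in adult males and 320 in adult females. Without the 3 members with most reads the TMM-scaled median sums were 534 and 490 in ES lines, 232 and 293 in fetal and 190 and 233 in adult livers (males, then females). Of 198 alternative values for single members, 166 kept direction and call, 27 lost the call and 5 reversed. Duplicate removal and the low adult depth limit what short rows can show. The causes of these shifts were not tested, apart from the smaller set of members tested in the livers alone.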
